A study of Oryza sativa Indica Group with 2 samples.

Results

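The 10 genes described here encode the large heat shock chaperones of rice: HSP101, members of the HSP90 and HSP70 families, and BiP, the HSP70 of the endoplasmic reticulum. They were chosen as rows of the authors' deposited table whose identifier begins with one of 10 listed loci. That rule uses no measured value, but the list was made with earlier results of these data known. Of these 10 loci, 5 were found, with 9 coding-sequence models, among the 3946 loci and 5804 models of the table. The other 5 have no row and so no level or ratio here. A row means an adjusted p below 0.05 in the authors' comparison, which 8.61% of the models tested had. That share is by model and not by locus, and genes with more reads pass at smaller ratios. The count of members found was not tested against it. The rule that set the members gives their families and compartments, and no annotation file used here ties these names to the locus identifiers. HSP101 (LOC_Os05g44340), HSP81-1 (LOC_Os08g39140) and BIP1 (LOC_Os02g02410) were also checked by position and lay on the chromosome of the RefSeq gene of that name, at a place that differed by at most 1.78% of the chromosome's length for BIP1.

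HSP70 proteins bind unfolded stretches of other proteins and release them with the use of ATP. HSP90 acts later, on nearly folded clients such as kinases and receptors, and HSP101 pulls proteins out of aggregates and hands them to HSP70. Several of these genes are known for strong induction by heat, while the constitutive forms and BiP also serve protein folding and import in unstressed leaves.

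Leaves came from a pair of indica breeding lines, one labelled cold-tolerant and one cold-sensitive, whose IRGA names share a long stem and end in A for the tolerant line and in CA-1 for the sensitive line. Seedlings of both, about 20 days old, spent 6 h at 10 °C in dim light (40 µmol m-2 s-1), after which leaves of 9 plants were pooled into 1 library per line. The labels list no unchilled plants, so a ratio compares chilled leaves of the lines and does not show a response to cold. The table does not say which line is the numerator of its fold change, so the libraries are named A for the numerator and B for the denominator.

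Levels are given as RPM, meaning reads per 1000000 reads of the library, whose scaled size was 12846997 reads for A and 12152372 for B. Ratios are given on the log2 scale with A on top, so a negative value is a lower level in A. The 95% intervals are exact and cover counting error only. There were no replicates, no test between the lines was run, and the adjusted p-values quoted are those of the authors' deposited table. Only models with an adjusted p below 0.05 are in the table, which were 8.61% of the 67393 models that its p-values imply were tested. For the members those p-values rest on counting error alone. Under the authors' scaling, a ratio interval without 0 thus follows from this threshold. All 3 listed leaf genes were in the table. Under the authors' scaling they were lower in A, as the chaperone members were, and they were not rescaled. The Rubisco small subunit gene (LOC_Os12g17600) had 2886 RPM in A and 6588 RPM in B, and a light-harvesting gene (LOC_Os01g41710) had 936 RPM in A and 2209 RPM in B, with log2 ratios of -1.19 and -1.24 that are further from 0 than that of any member. Rubisco activase (LOC_Os11g47970) was nearly equal, at 27181 RPM in A and 28822 RPM in B. Their part in the members' ratios was not tested. One of the 2 listed root genes, a silicon transporter gene (LOC_Os02g51110), was also in the table, at 5.53 RPM in A and 8.64 RPM in B, and neither endosperm gene was. In whole leaves, fewer cells of a type and less RNA per cell cannot be told apart.

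All 5 chaperone genes in the table were lower in library A than in library B, and 0 were higher in A. Among all loci of the table, 41.4% were higher in A and 58.6% in B, and with 5 genes, some of them related in sequence, the shared direction is given as a count and not as a pattern of the family. Ratios ran from -0.83 to -0.39 with a median of -0.53, against a median of -0.31 over all loci. Of the 5 genes, 3 were at least 0.5 log2 higher in B, against 38.8% of all loci, and 0 reached 1 log2, against 17.6% of all loci.

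Among the HSP90 genes, HSP81-1 (LOC_Os08g39140, chromosome 8), a cytosolic HSP90, was the member found. Its model with most reads had 2666 reads or 208 RPM in A (199.7 to 216), against 3366 reads or 277 RPM in B (268 to 287). The level in A was thus 25.1% below that in B (21.1 to 28.8%). The log2 ratio was -0.42 (-0.49 to -0.34), and its edgeR result in the authors' deposited table had an adjusted p of 6.92e-27.

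HSP81-1 had 4 models in the table, which belong to 1 locus, may share reads and are not counted as separate measurements. Model 3 had 202 RPM in A and 266 RPM in B, model 2 had 173 RPM in A and 224 RPM in B, and model 4 had 105 RPM in A and 134 RPM in B. Each was lower in A, with log2 ratios of -0.40, -0.37 and -0.36 in that order. Model 4 held 50.5% of the reads of the top model in A and 48.4% in B, so the models took similar shares in both libraries.

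The second cytosolic HSP90 member (LOC_Os04g01740) and the organelle HSP90 member (LOC_Os06g50300) had no row in the table.

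The cytosolic HSP70 members found, whose products fold new proteins and protect them under stress, had the lowest log2 ratios of the 5 genes. LOC_Os01g62290 (chromosome 1) had 632 reads or 49.2 RPM in A (45.4 to 53.2), against 1065 reads or 87.6 RPM in B (82.5 to 93.1). Its level in A was 43.9% below that in B (38.0 to 49.2%), the widest gap among the 5 genes. The log2 ratio was -0.83 (-0.98 to -0.69), and the authors' deposited table gives an adjusted p of 2.81e-29 from edgeR. A lower ratio was seen at 23.3% of all loci. Its second model had 31.1 RPM in A and 58.7 RPM in B, with a ratio of -0.91 (-1.09 to -0.74).

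LOC_Os05g38530 (chromosome 5), also a cytosolic HSP70, had 1137 reads or 88.5 RPM in A (83.4 to 93.8), against 1556 reads or 128 RPM in B (122 to 135). The level in A was 30.9% lower (25.3 to 36.0%). Its log2 ratio was -0.53 (-0.64 to -0.42), and its edgeR result in the authors' deposited table had an adjusted p of 1.89e-19.

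LOC_Os03g16920 (chromosome 3), the third cytosolic HSP70, was the least read member. It had 94 reads or 7.32 RPM in A (5.91 to 8.95), against 136 reads or 11.2 RPM in B (9.39 to 13.2). The level in A was 34.6% lower, but with few reads the bounds on that figure reached from 14.3 to 50.3%. The log2 ratio of -0.61 (-1.01 to -0.22) came with an edgeR adjusted p of 0.0247 in the authors' deposited table. Among the 253 loci of the table with a read number within 1.2 times of its own, the smallest absolute log2 ratio was 0.52, so this gene stood near the edge of what the table admits at that depth. The fourth cytosolic HSP70 member, LOC_Os11g47760, had no row.

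Summed, these 3 members had 1863 reads or 145 RPM in A, against 2757 reads or 227 RPM in B, a log2 ratio of -0.65 (-0.73 to -0.56). Both the sum and its interval take each read as counted at 1 of these genes only. The sum is not that of all HSP70 genes in the table. It leaves out LOC_Os03g16860, a locus of the other listed chaperones, with more reads (5058 in A and 6474 in B) and a ratio of -0.44. Copies of this family are alike in sequence, and how reads with several matches were counted is not given in the sources used here. Some loci on different chromosomes had identical read numbers, such as 234 in A and 69 in B at LOC_Os01g58038, LOC_Os02g24628 and LOC_Os04g16876. A read may thus count in full at more than 1 copy, and the level of each copy is uncertain. No member had the same pair of read numbers as another locus of the table, but reads shared in part were not tested for.

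The chloroplast HSP70 member (LOC_Os05g23740, chromosome 5), which serves protein import and folding in the stroma, had the most reads of the 5 genes and the smallest gap. It had 3918 reads or 305 RPM in A (295 to 315), against 4851 reads or 399 RPM in B (388 to 411). The level in A was 23.6% lower (20.3 to 26.8%). The log2 ratio was -0.39 (-0.45 to -0.33), and the adjusted p in the authors' deposited table was 5.83e-34 from edgeR. That p is the smallest of the 9 models, beside the smallest gap and the highest read number of the 5 genes. Of the 74 loci with a read number within 1.2 times of its own, 21 were higher in A and 53 in B, and the smallest absolute log2 ratio among them was 0.084.

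**Figure D1:**
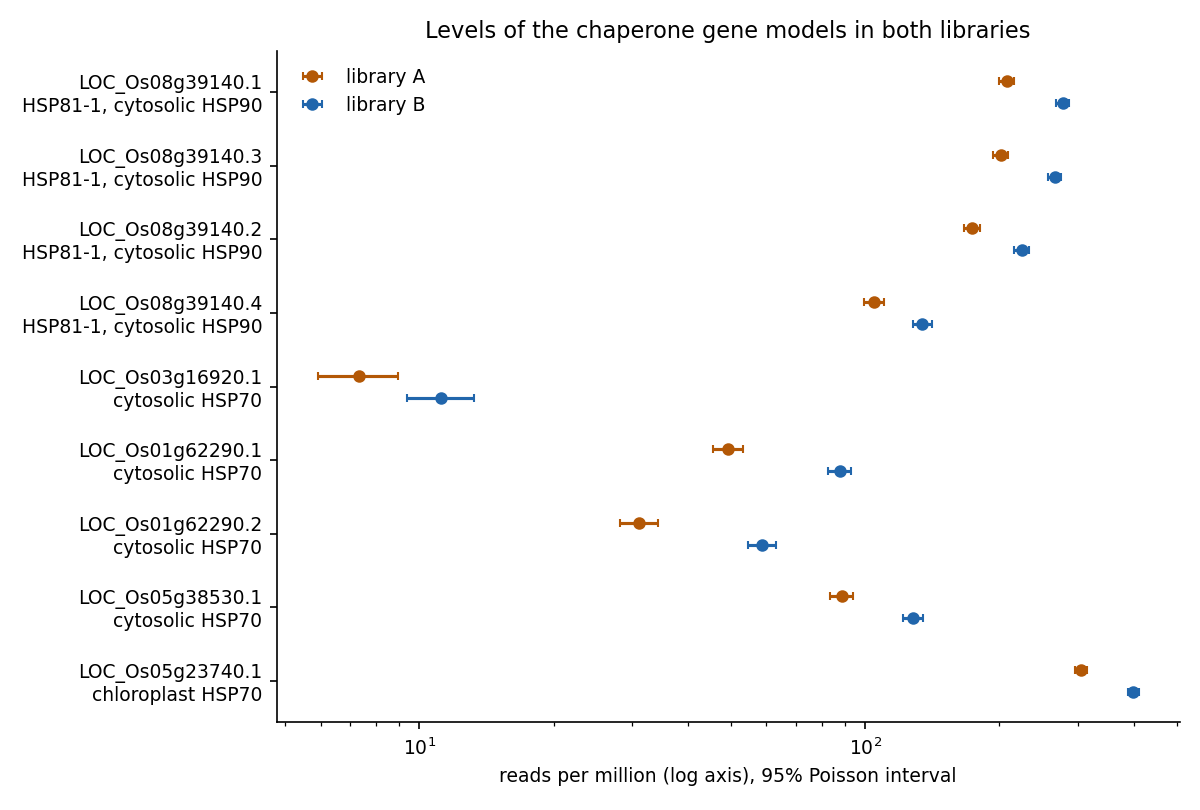
Levels of the 9 chaperone gene models in RPM on a log axis, library A in orange and library B in blue, with 95% Poisson intervals. Every model was lower in A than in B. LOC_Os03g16920 had the lowest levels, with 7.32 RPM in A and 11.2 RPM in B. The chloroplast HSP70 had the highest, with 305 RPM in A and 399 RPM in B. The intervals overlap for no model, which the authors' threshold of an adjusted p below 0.05 all but ensures.

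HSP101 (LOC_Os05g44340), the disaggregase known in maize and Arabidopsis for its part in heat tolerance, and BIP1 (LOC_Os02g02410), the folding helper of the secretory pathway, had no row. A missing row gives no level and no bound on a ratio. Whether HSP101, BIP1 or the other 3 missing members were expressed in these leaves, or differed between the lines, was not analysed here.

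The direction of the 5 genes held under both other scalings, though the gaps shrank. Centring on the median log2 ratio of all models, which was -0.30, left HSP81-1 at -0.11 (-0.19 to -0.039) and the chloroplast HSP70 at -0.084 (-0.15 to -0.023). LOC_Os01g62290 kept the widest gap, at -0.53 (-0.67 to -0.39). LOC_Os05g38530 came to -0.23 (-0.34 to -0.12). The centred interval of LOC_Os03g16920, -0.31 (-0.70 to 0.081), reached across 0, as did those of models 2 and 4 of HSP81-1. With the table's own read totals as library sizes, the 5 ratios ran from -0.63 to -0.19. Those totals add all models, so reads that models of 1 locus share may enter more than 1 time. Under centring 50.2% of all loci were higher in B, and with those totals 55.8%. Which scaling is nearest to the true RNA content cannot be told from the table, since it holds only models that passed the authors' threshold.

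**Figure D2:**
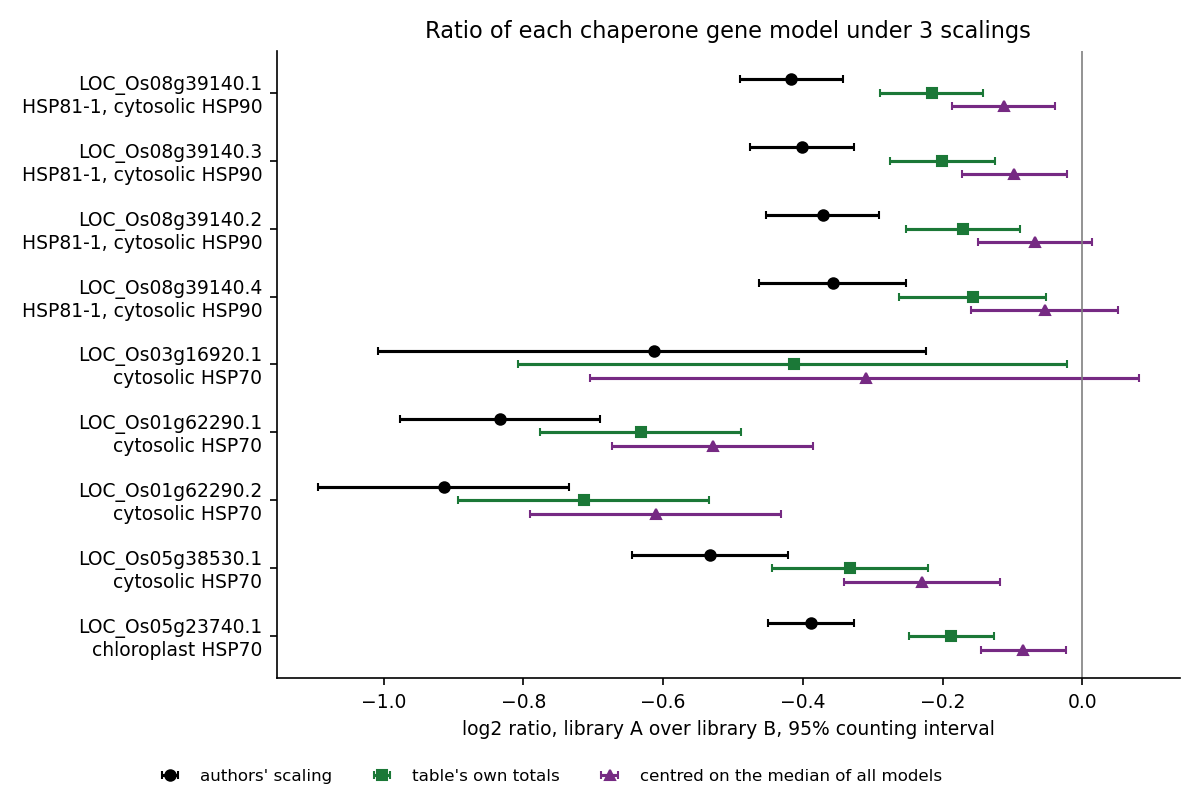
Log2 ratio of library A over library B for each model with its 95% counting interval, under the authors' scaling (black), the table's own totals (green) and centring on the median of all models (purple). All points lie below 0, and the centred intervals of LOC_Os03g16920 and of models 2 and 4 of HSP81-1 reach across it.

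**Figure D3:**
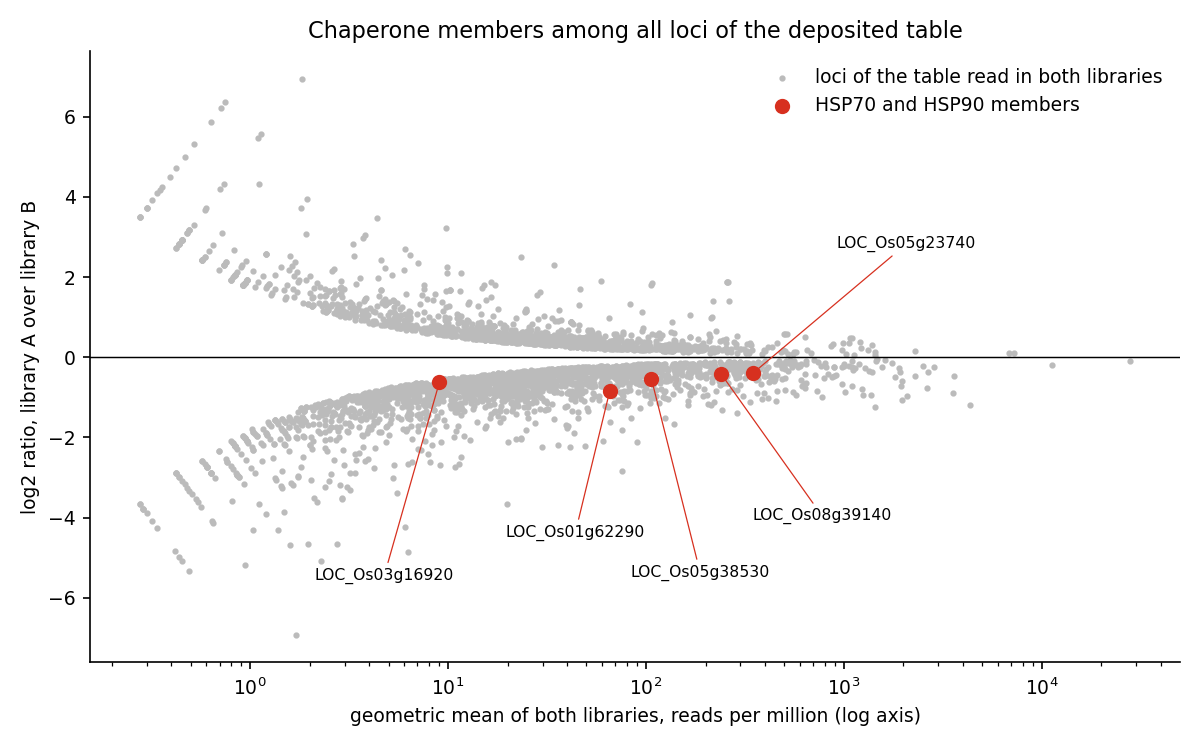
Log2 ratio of A over B against the geometric mean level in RPM (log axis) for the loci of the table read in both libraries (grey), with the 5 chaperone genes in red. The band without points around 0 narrows as the level increases, and the 5 genes lie below it, with LOC_Os01g62290 the lowest at -0.83.

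Differences between the genes in their ratios do not depend on the scaling of the libraries. Of the 10 pairs among the 5 genes, 4 had a 95% exact conditional interval of the difference that left out 0. LOC_Os01g62290 had the lower ratio than the chloroplast HSP70, by a difference of -0.44 (-0.60 to -0.29). It differed from HSP81-1 by -0.42 (-0.58 to -0.25) and from the cytosolic LOC_Os05g38530 by -0.30 (-0.48 to -0.12). LOC_Os05g38530 differed from the chloroplast HSP70 by -0.14 (-0.27 to -0.017), an interval that ends close to 0.

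HSP81-1 and the chloroplast HSP70 could not be told apart, with a difference of -0.028 (-0.12 to 0.068). The interval for LOC_Os05g38530 minus HSP81-1, -0.25 to 0.018, also held 0. The 4 pairs with LOC_Os03g16920 had wide intervals that held 0, the widest from -0.64 to 0.20 for LOC_Os01g62290 minus LOC_Os03g16920. These intervals describe the reads of 2 libraries, are not adjusted for the number of pairs, and say nothing of the spread between plants. They also take each read as counted at 1 gene only.

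**Figure D4:**
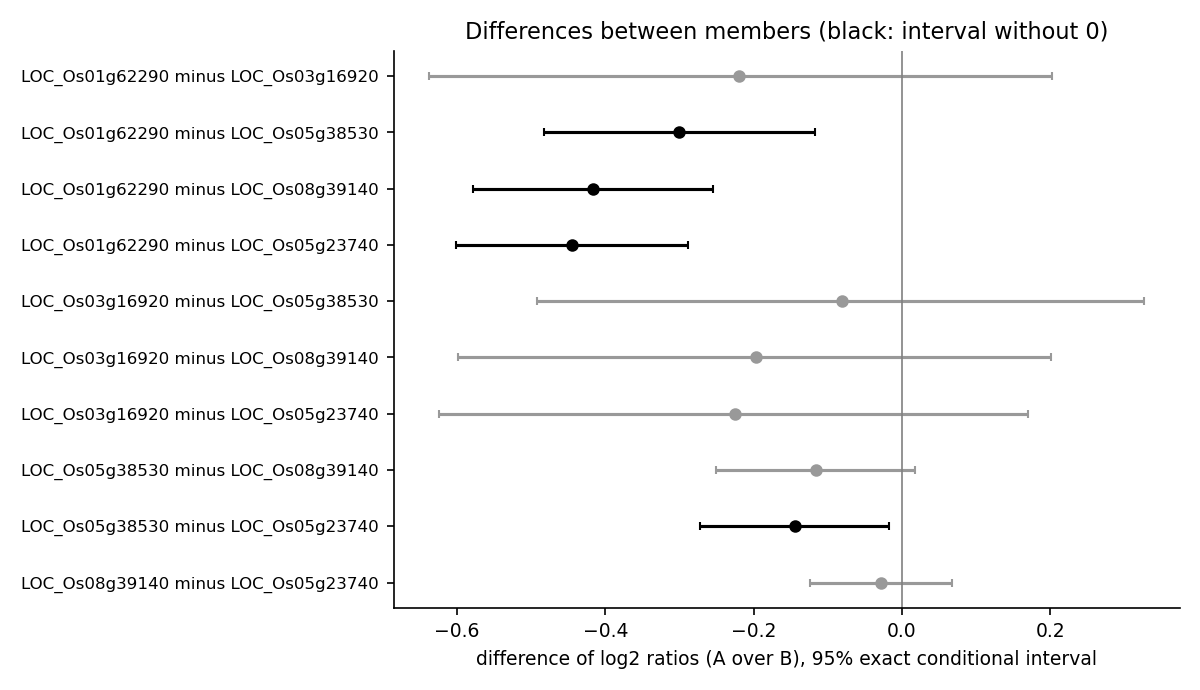
Difference between the log2 ratios (A over B) of each pair of members with its 95% exact conditional interval, black where the interval leaves out 0 and grey where it holds 0. The 3 black points at -0.30 to -0.44 are pairs with LOC_Os01g62290, and the fourth, at -0.14, is LOC_Os05g38530 minus the chloroplast HSP70.

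The other chaperone genes were taken from a list of 47 loci assembled from field knowledge, and 9 of them were in the table. A row was held by 8.61% of the models tested, a share by model and not by locus. Neither the count of 9 nor the counts by class below were tested against it. Of these 9, 3 were higher in library A and 6 in B, against 41.4% and 58.6% of all loci of the table. Their median log2 ratio of -0.11 was the shared value of LOC_Os09g30418 and LOC_Os09g30439. These loci had identical reads and are counted separately in that median, so it is not set against that of the members. Both other scalings gave 5 higher in A and 4 in B. Of all loci, 50.2% were higher in B under centring and 55.8% with the table's totals. In the listed HSP70 and BiP group, 1 of 14 loci was found, LOC_Os03g16860, which lies close to LOC_Os03g16920 on chromosome 3. It had 394 RPM in A and 533 RPM in B, a log2 ratio of -0.44 (-0.49 to -0.38). LOC_Os01g62290 differed from it by -0.40 (-0.55 to -0.24), while the intervals for the other 3 HSP70 members minus LOC_Os03g16860 held 0.

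Of 6 further HSP90 loci, 3 were in the table. LOC_Os09g30418 and LOC_Os09g30439, in the part of chromosome 9 that holds HSP81-2 and HSP81-3, had identical values, 3697 reads or 288 RPM in A and 3769 reads or 310.1 RPM in B, and so count as 1 measurement. Their log2 ratio was -0.11 (-0.17 to -0.042) under the authors' scaling and turned to 0.20 when centred and to 0.093 with the table's totals. The ratio of HSP81-1 lay below that of this pair, with a difference of -0.31 (-0.41 to -0.21) that holds under any scaling. LOC_Os09g29840 had 41.1 RPM in A and 33.3 RPM in B, a ratio of 0.30 (0.11 to 0.49), and HSP81-1 differed from it by -0.72 (-0.92 to -0.51). The listed HSP90 genes thus did not share 1 ratio: under the authors' scaling HSP81-1 and the chromosome 9 pair were lower in A and LOC_Os09g29840 higher, while centring and the table's totals put the pair above 0 as well.

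Small heat shock proteins hold unfolding proteins until HSP70 and HSP101 act on them. Of 14 listed loci, 3 were in the table, all with few reads. HSP24.1 (LOC_Os02g52150) had 9.96 RPM in A and 17.5 RPM in B, a log2 ratio of -0.81 (-1.14 to -0.49). HSP17.9B (LOC_Os01g04350) had 52 reads in A and 86 in B, or -0.81 (-1.33 to -0.29). HSP18.0 (LOC_Os01g08860) went the other way, with 16 reads in A and 2 in B, or 2.92 on the log2 scale (0.83 to 6.08). It was the only one of the 9 loci at least 1 log2 higher in A, against 9.63% of all loci, and 6 other loci of the table had that same pair of read numbers.

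Of 7 listed chaperonin loci, 2 were found. LOC_Os09g26730 had 9.26 RPM in A and 17.6 RPM in B, a ratio of -0.93 (-1.26 to -0.60). LOC_Os12g17910 had 51.7 RPM in A and 43.2 RPM in B, a ratio of 0.26 (0.091 to 0.43). None of the 2 listed organelle ClpB loci, relatives of HSP101, and none of the 4 listed co-chaperone loci, among them SGT1 and RAR1, had a row.

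**Figure D5:**
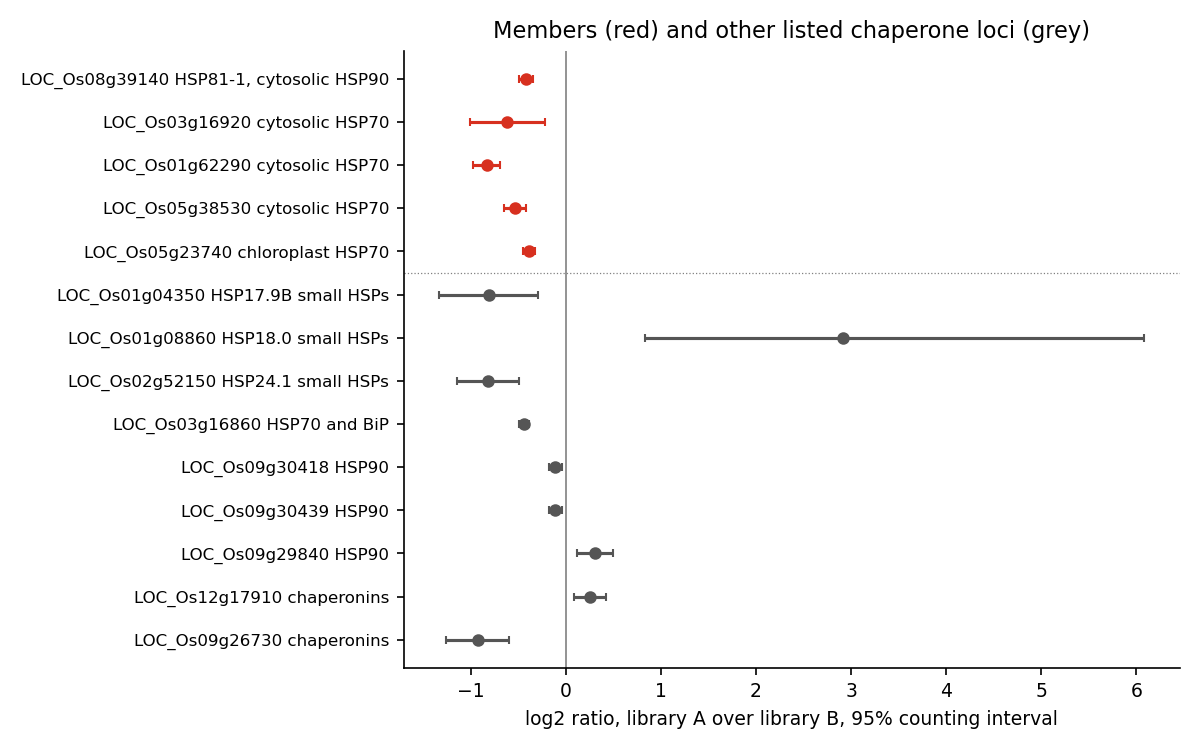
Log2 ratio of library A over library B with its 95% counting interval for the 5 members (red) and the 9 other listed chaperone loci in the table (grey). The members lie between -0.83 and -0.39, while the other loci lie on both sides of 0, from -0.93 at LOC_Os09g26730 to 2.92 at HSP18.0, whose interval is the widest.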

How the data were processed

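Poly-A RNA from leaves was sequenced in 1 library per line as single-end reads of 100 bp, per the labels' protocols. The submitters' processing notes name Bowtie 0.12.7 and edgeR. Not given in the sources used here are genome build, annotation release, strand use and the treatment of reads with several matches. Per the file headers, the authors deposited, for each coding-sequence model, a mean log2 share of reads, a log2 fold change, and p-values before and after adjustment.

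Both log2 columns were solved for each library's share, which gave whole reads for 100% of values within 0.001 of a read. The recovery was also tested on simulated data. The model with most reads stands for a locus. Intervals were Poisson for levels, Clopper-Pearson for ratios and exact conditional for differences (Python 3.11.15, scipy 1.17.1). Those of the sum and of all differences between loci take each read as counted at 1 locus only. Exact binomial p-values from these reads were 0.73 to 1.03 times those of the authors' deposited table for the 9 member models, so the authors' values rest on counting error with no spread between plants.

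The members and lists were chosen with earlier results of these data known. Named genes are all members and, per class of other chaperones, at most 3 loci with most reads. All 22 names searched in the RefSeq gene table (assembly ASM3414082v1) lay on the same chromosome, at most 7.22% of its length from the place the locus number gives, which does not separate neighbours. No sequence was printed, as the reference used here holds none.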

Additional observations from a re-analysis of the deposited data

How the results depend on the processing

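Every member ratio stayed negative under each alternative. Pseudocounts of 1 and 0.1 RPM, the model with fewest reads and the sum of models kept all 5 within their counting intervals. Centring moved HSP81-1 (LOC_Os08g39140) to -0.11, LOC_Os01g62290 to -0.53, LOC_Os05g38530 to -0.23 and the chloroplast LOC_Os05g23740 to -0.084, and the table's totals moved them to -0.22, -0.63, -0.33 and -0.19 in the same order. The 5 members higher in B became 9 by model, 3 at 0.5 log2 or more, 0 at 1 log2 or more, and 3 without loci whose reads matched another locus within 1%. For the other chaperones, the 3 loci higher in A became 5 under centring and under the table's totals, 1 at 0.5 log2 and 1 at 1 log2, and the 6 higher in B became 3 and 0 at those sizes. Counting equal reads once, an alternative chosen after seeing the data, left 3 in A and 5 in B. Limits of size count fewer genes by construction. No paired analysis was possible because each line has 1 library. Depth limits LOC_Os03g16920 most, with 230 reads over both libraries, and the 5 missing members have no value.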

Other observations

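The surroundings of the members on the chromosomes were counted from loci of the table within 500 locus numbers on either side. The 5 members found had 42 such neighbours, 14 higher in library A and 28 (66.7%) in library B, and 0 of them were read in 1 library only. Around the 5 members without a row, 14 of 41 neighbours were higher in A and 27 (65.9%) in B, against 58.6% higher in B among all loci of the table. The 9 neighbours of LOC_Os01g62290 had a median log2 ratio of -0.55 and the 7 of LOC_Os05g38530 a median of -0.65, while the 4 of the chloroplast HSP70 (LOC_Os05g23740) were split evenly, with a median of 0.068. Of the members without a row, the HSP90 locus LOC_Os04g01740 had 8 neighbours with a median of 0.41, 5 higher in A and 3 in B, and 3 of the 8 were read in 1 library only. HSP101 (LOC_Os05g44340) had 5 neighbours with a median of 0.28, 3 higher in A and 2 in B. The 5 neighbours of the HSP70 locus LOC_Os11g47760 were all higher in B, with a median of -0.69, and medians were -0.41 around LOC_Os06g50300 and -0.42 around BIP1 (LOC_Os02g02410). Around the remaining members found, they were -0.43 for HSP81-1 (LOC_Os08g39140) and -0.22 for LOC_Os03g16920. Locus numbers give order and not distance, and any part of the surroundings in the members' ratios was not tested.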
